A study of Rattus norvegicus with 6 samples.

Results

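The ZIP zinc importers are the genes named Slc39a with a number. The 10 genes described here (Slc39a1, Slc39a3, Slc39a4, Slc39a5, Slc39a6, Slc39a7, Slc39a8, Slc39a10, Slc39a13 and Slc39a14) were followed in the renal cortex of rats given N,N'-dinitrosopentamethylenetetramine (DNPT), an N-nitroso compound. Probes were assigned to them through the RefSeq accession that each array probe carries. In this way 8 of the 10 genes had at least 1 probe, among 15645 genes with a probe in all, and Slc39a10 and Slc39a13 were not analysed here. The 8 genes had 19 of the 61537 non-control probes, and 18 of the 19 were well above background on at least 3 arrays. All 8 genes passed that filter. The family was chosen by the processed signals of these same arrays, DNPT against vehicle, in which Slc39a4 was among the genes that differed most. The members' differences between the groups are therefore given as a description, with no test.

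DNPT was given to 3 male Sprague-Dawley rats at 200 mg/kg/day for 4 weeks. The vehicle group was 3 male Sprague-Dawley rats given corn oil for 4 weeks. All 6 rats were 5 weeks old when purchased and were kept on the same basal diet, and the series has a single dose, strain and sex. RNA of each rat was hybridised to a 1-colour Agilent array, and values are log2 signals relative to the 75th percentile of the array, so that 0 is the level of that percentile and 1 unit is a doubling.

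ZIP proteins carry zinc into the cytosol, from outside the cell or out of organelles. ZnT proteins (Slc30a genes) move zinc the other way, and metallothioneins bind it inside the cell. Cells of the proximal tubule take up filtered zinc, and cadmium that reaches the kidney collects in the same cells. Some ZIP proteins also carry iron, manganese and cadmium, which is why members of the family have been studied in kidney toxicity.

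Probes well above background numbered 42985, 43402 and 42116 in DNPT replicates 1, 2 and 3. In vehicle replicates 1, 2 and 3 they numbered 44853, 45167 and 44730. In the same order, the 75th percentile that sets each array's 0 was 1112, 953 and 996 in DNPT rats. It was 1247, 1329 and 1164 in vehicle rats. Both measures were thus lower on every DNPT array, and the part of this in the results below was not tested. The small number of arrays, 6, limits the precision. Slide 1, scanned on day 1, held the 3 vehicle rats together with DNPT replicate 1, while slide 2, scanned on day 2, held DNPT replicates 2 and 3. The tissue carried its markers: all 7 proximal tubule genes were tested, with Miox at 8.87 to 9.33 in DNPT rats and 8.86 to 9.11 in vehicle rats. Liver transcripts stood apart in 1 DNPT rat. The summed linear signal of 9 of them, in units of the 75th percentile, was 2.13, 1.70 and 23.6 in DNPT replicates 1, 2 and 3 and 1.87, 3.74 and 1.86 in vehicle replicates 1, 2 and 3. Red cell genes summed to 526 to 587 in DNPT rats and 410 to 511 in vehicle rats, and the part of these markers in the results below was not tested. In whole cortex, fewer cells of a type and less RNA per cell cannot be told apart. Across all 34915 features tested, limma with Benjamini-Hochberg adjustment called 0 at an adjusted p under 0.05, which is 0% of them. An unadjusted p under 0.05 was reached by 12.1% of features. Without DNPT replicate 1, 623 features were called, 40 higher and 583 lower.

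Within the family, Slc39a4 stood out, Slc39a5, Slc39a6 and Slc39a7 lay slightly higher in DNPT rats, Slc39a1, Slc39a3 and Slc39a8 lay close to vehicle, and all 4 probes of Slc39a14 had lower means in DNPT rats. None of the 8 members was called in the fit to all 6 arrays, where 0% of features were. In 4 of the 8 members every DNPT rat lay above every vehicle rat, beside 11.9% of all features, and in 0 of 8 every DNPT rat lay below, beside 8.32%. Since the same contrast was in view when the genes were chosen, nothing is read from these shares. The median change of the 8 members was 0.08, and that of all features was 0.01.

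**Figure D1:**
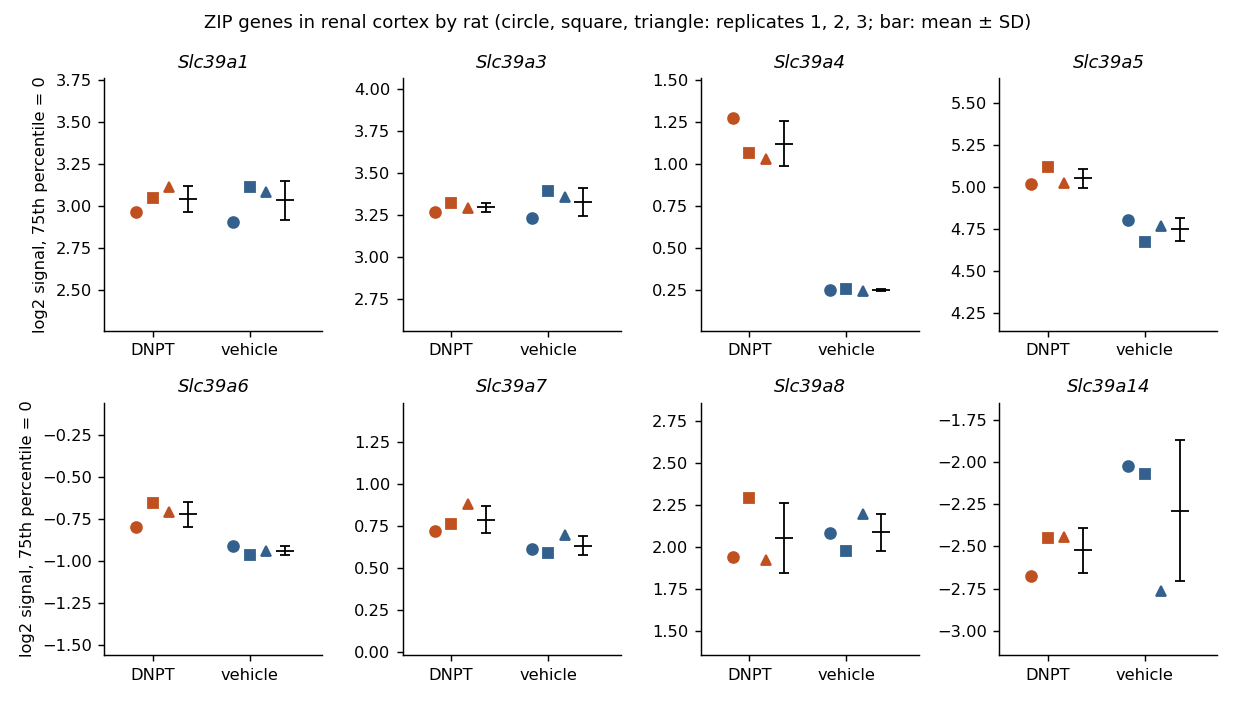
Log2 signal of the 8 ZIP genes with a probe, relative to the 75th percentile of each array, in DNPT rats (left in each panel) and vehicle rats (right), with the mean and SD beside the points. Every panel spans the same range of log2 units. The groups are separated by 0.77 for Slc39a4, by 0.22 for Slc39a5, by 0.11 for Slc39a6 and by 0.03 for Slc39a7, and they overlap for the other 4 genes.

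Slc39a4, Slc39a5, Slc39a1 and Slc39a3 encode carriers of the outer cell membrane. Slc39a4 encodes ZIP4, the importer on the apical side of intestinal cells, whose loss in humans causes the zinc deficiency acrodermatitis enteropathica. Its signal was 1.27, 1.07 and 1.03 in DNPT replicates 1, 2 and 3, against 0.25, 0.26 and 0.25 in vehicle replicates 1, 2 and 3. The vehicle rats lay within a very narrow band and every DNPT rat lay far above it. The mean was 1.12 ± 0.13 in DNPT rats and 0.25 ± 0.01 in vehicle rats (SD, n = 3 each), a change of 0.87 (SE 0.09), or 1.83-fold higher. Of all features, 96.7% had a smaller change in either direction. The DNPT rat with the largest difference was replicate 1, the only one on the slide of the vehicle rats, at 1.02 above the vehicle mean. The gene has a single probe on the array, so no second probe bears on the value.

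Slc39a5 encodes ZIP5, which in mice sits on the basolateral side of intestinal and pancreatic cells, opposite to ZIP4. Its brightest probe was at 5.02, 5.12 and 5.02 in DNPT replicates 1, 2 and 3, against 4.80, 4.68 and 4.77 in vehicle replicates 1, 2 and 3. The groups did not overlap, and the change of 0.30 (SE 0.08) was 1.24-fold. A dimmer probe of the gene was also higher in every DNPT rat, at -1.18 to -1.10 in DNPT rats and -1.36 to -1.21 in vehicle rats, with a smaller change of 0.15 (SE 0.08). The third probe was well above background in 0 of 3 DNPT rats and 2 of 3 vehicle rats and was not tested.

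Slc39a1 and Slc39a3 encode ZIP1 and ZIP3, close relatives that take up zinc at the surface of many cell types. Slc39a1 was at 2.96, 3.05 and 3.12 in DNPT replicates 1, 2 and 3, against 2.90, 3.12 and 3.09 in vehicle replicates 1, 2 and 3. The groups covered the same range, and the change was 0.01 (SE 0.10). Its other probes had changes of 0.03 (SE 0.08) and -0.12 (SE 0.09), and on the second of these all DNPT rats lay below all vehicle rats. Slc39a3 was at 3.27 to 3.32 in DNPT rats and 3.23 to 3.39 in vehicle rats, with a change of -0.03 (SE 0.08), and a dimmer probe had -0.15 (SE 0.11). The sign for Slc39a1 turned in 6 of 17 alternatives, among them quantile normalization (-0.04), and that for Slc39a3 turned only without vehicle replicate 2 (0.002).

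Slc39a6 and Slc39a7 belong, like ZIP4, ZIP5, ZIP8 and ZIP14, to the LIV-1 branch of the family. Slc39a6 encodes ZIP6, the founding member of that branch, first known as an oestrogen-responsive gene of human breast cancer cells. Its signal was -0.80, -0.65 and -0.71 in DNPT replicates 1, 2 and 3, against -0.91, -0.96 and -0.94 in vehicle replicates 1, 2 and 3. Every DNPT rat lay above every vehicle rat, by a change of 0.22 (SE 0.08). The second probe of the gene overlapped between the groups, with -1.32 to -1.22 in DNPT rats and -1.48 to -1.28 in vehicle rats and a change of 0.09 (SE 0.09). Slc39a7 encodes ZIP7, which releases zinc from the endoplasmic reticulum. It was at 0.72, 0.77 and 0.88 in DNPT replicates 1, 2 and 3, against 0.61, 0.59 and 0.70 in vehicle replicates 1, 2 and 3. The groups were separate, but by less than the spread within either of them, and the change was 0.16 (SE 0.08). After normexp correction and quantile normalization the Slc39a7 groups overlapped. On slide 1 alone the changes were smaller, 0.14 (SE 0.11) for Slc39a6 and 0.09 (SE 0.11) for Slc39a7.

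Slc39a8 and Slc39a14 encode ZIP8 and ZIP14, which carry iron, manganese and cadmium besides zinc. ZIP8 has been described at the apical side of the mouse proximal tubule, and ZIP14 takes up iron that is not bound to transferrin in mouse liver. Slc39a8 was at 1.94, 2.29 and 1.92 in DNPT replicates 1, 2 and 3, against 2.08, 1.98 and 2.20 in vehicle replicates 1, 2 and 3. DNPT replicate 2 was the highest of the 6 rats and the other DNPT rats the lowest, and the change was -0.03 (SE 0.13). The other probes had changes of -0.15 (SE 0.10) and -0.03 (SE 0.12), with overlapping groups. The sign for Slc39a8 turned without DNPT replicate 1 (0.02), without DNPT replicate 3 (0.03) or without vehicle replicate 3 (0.02).

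Slc39a14 was at -2.68, -2.45 and -2.44 in DNPT replicates 1, 2 and 3, against -2.02, -2.07 and -2.77 in vehicle replicates 1, 2 and 3. Vehicle replicates 1 and 2 lay above all DNPT rats, while vehicle replicate 3 was the lowest of the 6. The change of -0.24 (SE 0.22) was -0.48 without vehicle replicate 3, -0.10 without vehicle replicate 1, -0.13 without vehicle replicate 2 and -0.15 after normexp correction and quantile normalization. The other 3 probes of the gene had changes of -0.29 (SE 0.14), -0.46 (SE 0.20) and -0.84 (SE 0.28), so that the mean over its 4 probes was -0.46. Vehicle replicate 3 was also the lowest vehicle rat on each of these 3 probes. On the last of them the groups did not overlap, at -5.76 to -4.78 in DNPT rats and -4.72 to -4.25 in vehicle rats, but it was well above background in only 1 of 3 DNPT rats.

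**Figure D2:**
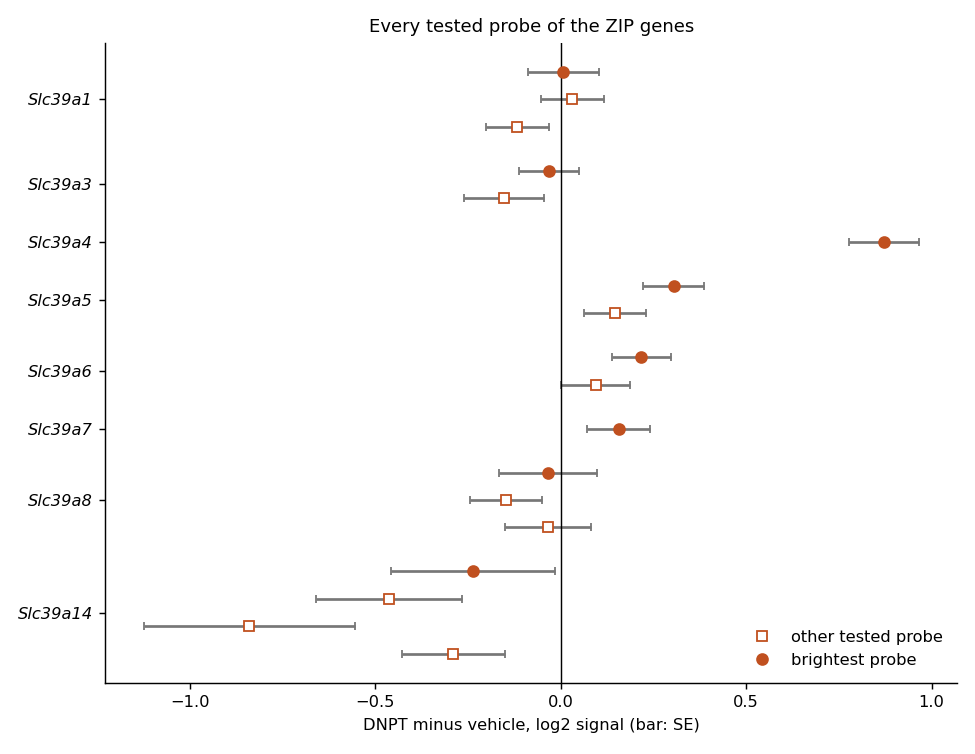
Change in log2 signal, DNPT minus vehicle, with its SE, for each of the 18 tested probes of the 8 ZIP genes. Filled circles are the brightest probe of a gene and open squares its other tested probes. Slc39a4 stands at 0.87, both tested probes of Slc39a5 and of Slc39a6 lie above 0, and all 4 probes of Slc39a14 lie below 0, from -0.84 to -0.24.

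The members differed in how the slides and single rats bore on them. Slide 2 holds no vehicle rat, so a fit on slide 1 and a fit with slide as a block both set DNPT replicate 1 against the 3 vehicle rats and assume that it varies like the other rats. In that comparison Slc39a4 was 1.02 higher (SE 0.10) and Slc39a5 0.27 higher (SE 0.12). DNPT replicate 1 lay above all vehicle rats in 4 of the 8 members, beside 30.7% of 34911 features. It lay below all of them in 1 of 8 (Slc39a8), beside 23.9%. The 4 are the members without overlap over all rats, for which this holds by definition, so nothing is read from it. With each rat left out in turn, the change of Slc39a4 ran from 0.80 to 0.92, that of Slc39a5 from 0.27 to 0.33, that of Slc39a6 from 0.18 to 0.26 and that of Slc39a7 from 0.11 to 0.19. Without DNPT replicate 3, the rat with the liver transcripts, the changes of Slc39a4 and Slc39a5 were 0.92 and 0.32.

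**Figure D3:**
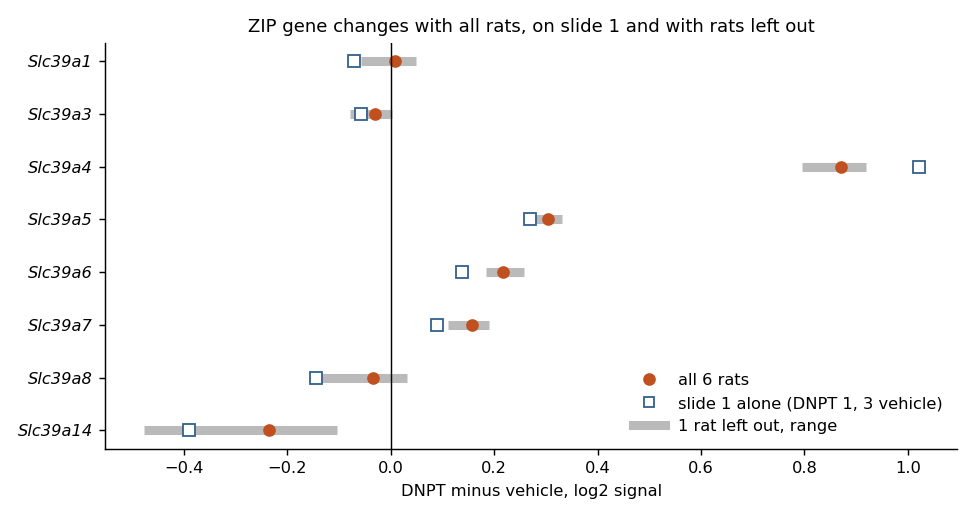
Change in log2 signal, DNPT minus vehicle, for the 8 ZIP genes over all 6 rats (circles), on slide 1 alone, where DNPT replicate 1 faces the 3 vehicle rats (squares), and the range when each rat is left out (bars). Slc39a4 lies between 0.80 and 1.02 throughout, and the bars of Slc39a1, Slc39a3 and Slc39a8 cross 0.

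Markers of cell types were looked at beside these genes. Of all features, 11.9% were higher and 8.32% lower in DNPT rats without overlap. The proximal tubule markers Lrp2 and Slc5a2, 2 of 7, were higher in all DNPT rats, and the summed signal of the 7 was 1572 to 1826 in DNPT rats and 1411 to 1564 in vehicle rats. Of 4 tested macrophage markers 1, Csf1r, was lower without overlap, and their sum was 49.97 to 64.1 in DNPT rats and 60.7 to 76.7 in vehicle rats. Of 6 tested lymphocyte markers 3 were lower and 2 higher without overlap, and their sum was 1.05 to 1.29 in DNPT rats and 1.32 to 1.53 in vehicle rats. The part of these cell types in the ZIP gene values was not tested.

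The genes whose profile over the 6 rats was closest to that of a member were found among 12675 other named genes, by the root mean square difference between profiles centred on their own means. The closest to Slc39a4 was Parp3, a poly(ADP-ribose) polymerase of DNA strand break repair (difference 0.11). Next were RT1-DMa, which helps load peptides on MHC class II (0.13), and Nme4, a mitochondrial nucleoside diphosphate kinase (0.14). The median gene differed by 0.46, but a gene with no change over the 6 rats would differ by 0.44. That is the root mean square of the Slc39a4 profile itself, so the median says little of how close these genes are. Like Slc39a4, RT1-DMa was highest in DNPT replicate 1, with 2.61, 2.01 and 2.16 in DNPT replicates 1, 2 and 3, against 1.52, 1.48 and 1.49 in vehicle replicates 1, 2 and 3. The closest to Slc39a5 were Lrfn4 and Eno3 (0.03 each) and Tmem204 (0.03). Hnrnpab (0.01), Mat2b (0.02) and Nipsnap1 (0.02) were closest to Slc39a6, and Ndufs7, Mlst8 and Mrpl14 (0.02 each) to Slc39a7, whose small change many genes share.

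The windows around the start sites of 3 members are shown because their genes lay higher (Slc39a5 and Slc39a7) or close to vehicle (Slc39a1), and because the metal response element bound by the zinc sensor MTF1 can be looked for there. The sequences are RefSeq's, 250 bases before to 50 after the start, on the gene's strand, and capitals mark matches to the element.
Slc39a7, GRCr8 chr20:4824809-4825108, plus strand: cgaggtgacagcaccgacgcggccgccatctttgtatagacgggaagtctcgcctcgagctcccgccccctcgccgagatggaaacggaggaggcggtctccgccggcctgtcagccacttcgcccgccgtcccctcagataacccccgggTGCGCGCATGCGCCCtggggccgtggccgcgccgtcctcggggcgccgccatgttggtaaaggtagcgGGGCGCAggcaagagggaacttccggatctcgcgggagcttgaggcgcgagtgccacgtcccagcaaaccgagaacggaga
Slc39a5, GRCr8 chr7:1414735-1415034, minus strand: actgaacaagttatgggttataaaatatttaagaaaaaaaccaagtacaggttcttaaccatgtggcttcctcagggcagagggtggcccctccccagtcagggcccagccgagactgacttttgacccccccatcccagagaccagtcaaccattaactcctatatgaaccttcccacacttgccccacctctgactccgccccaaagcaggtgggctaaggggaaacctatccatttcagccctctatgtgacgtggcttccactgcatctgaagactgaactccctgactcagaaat
Slc39a1, GRCr8 chr2:178000869-178001168, plus strand: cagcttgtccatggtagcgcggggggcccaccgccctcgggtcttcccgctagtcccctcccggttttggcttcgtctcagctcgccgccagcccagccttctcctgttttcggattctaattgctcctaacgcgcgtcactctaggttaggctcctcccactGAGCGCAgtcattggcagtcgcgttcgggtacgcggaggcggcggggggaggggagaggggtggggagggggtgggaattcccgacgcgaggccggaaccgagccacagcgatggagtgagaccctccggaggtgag
The letters searched on both strands were TGCACNC and TGCGCNC for the metal response element and CACGTG for the E-box, the site of clock and USF factors. The window of Slc39a7 held 4 matches to TGCGCNC, of which the 3 in the first stretch of capitals overlap or adjoin each other, that of Slc39a1 held 1, and that of Slc39a5 held none. Of 33469 windows of this length 24.2% held at least 1 metal response element by these letters and 6.42% an E-box. Windows were available for 8 of the 10 genes, 9 in all with a second for Slc39a7. Of the 9, 4 held a metal response element and 0 an E-box. The G and C content of these 4 ran from 66.3% to 75%, and that of the others from 47% to 70%. The 24.2% over all windows was not matched for that content. The windows of Slc39a7 overlap each other and hold the same 4 matches, so that gene counts double. The genes with a match were Slc39a1, Slc39a7 and Slc39a13, and Slc39a13 was not analysed here. Slc39a4 and Slc39a14 had no window. Matches are letters in a window and say nothing of binding.

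Other genes that handle zinc, iron or manganese were set beside the members. Of 20 tested genes in 4 lists, 0 were called by limma at an adjusted p under 0.05, where 0% of all features were. A limma unadjusted p under 0.05 was reached by 3 of the 20, beside 12.1% of all features in either direction. All 3 were higher, and 5.95% of all features were higher at that p. Among the 4 other ZIP genes, 1 lay higher without overlap, beside 11.9% of all features. This was Slc39a2 (ZIP2, an importer of the same branch as ZIP1 and ZIP3), at -5.15, -5.03 and -4.93 in DNPT replicates 1, 2 and 3, against -7.33, -6.08 and -5.97 in vehicle replicates 1, 2 and 3. Its change was 1.42 (SE 0.37, limma adjusted p = 0.354, 0.123 to 0.762 over the alternatives), at a dim signal that was well above background in all 3 DNPT rats and 2 of 3 vehicle rats, and was 0.31 after normexp correction and quantile normalization. Slc39a9, a Golgi transporter, was at 0.01 (SE 0.10), Slc39a11 at -0.04 (SE 0.15) and Slc39a12, best known in brain, at -0.42 (SE 0.33). Without vehicle replicate 3 Slc39a11 was at 0.11 and Slc39a12 at -0.19. Slc39a12 was at -0.16 without DNPT replicate 1, -0.67 without vehicle replicate 2 and -0.94 on slide 1 alone.

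Of 7 tested ZnT exporters, 4 had positive changes (median 0.04, beside 0.01 over all features). That median was -0.02 without DNPT replicate 2, 0.02 without vehicle replicate 2, 0.00055 without vehicle replicate 3, -0.03 after normexp correction and quantile normalization, and 0.07 on slide 1 alone. Slc30a2 encodes ZnT2, which loads zinc into vesicles and into milk. It was at 4.02, 4.21 and 4.16 in DNPT replicates 1, 2 and 3, against 3.59, 3.53 and 3.84 in vehicle replicates 1, 2 and 3, a change of 0.48 (SE 0.11, limma adjusted p = 0.345, 0.112 to 0.752 over the alternatives) without overlap. The changes of Slc30a3, which fills synaptic vesicles with zinc, and of Slc30a9 were -0.29 (SE 0.24) and 0.12 (SE 0.43). Neither sign was stable: on slide 1 alone Slc30a3 was at 0.17 and Slc30a9 at -0.53, and Slc30a9 ran from -0.28 without vehicle replicate 3 to 0.44 without DNPT replicate 1. Slc30a1, the exporter of the outer membrane whose transcription MTF1 drives, was at -0.01 (SE 0.13).

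Of 4 tested genes of the metallothionein list, 3 had positive changes (median 0.12). Mt1 and Mt2A, the zinc-induced metallothioneins, had overlapping groups, with Mt1 at 8.52, 8.80 and 8.67 in DNPT replicates 1, 2 and 3, against 8.58, 8.50 and 8.65 in vehicle replicates 1, 2 and 3. The changes were 0.09 (SE 0.10, limma adjusted p = 0.735) for Mt1 and 0.16 (SE 0.11, limma adjusted p = 0.539) for Mt2A. After normexp correction and quantile normalization the changes were -0.07 for Mt1 and -0.02 for Mt2A, and on slide 1 alone -0.06 and 0.03. Over all rats, the other probe of Mt1 had a change of 0.19 (SE 0.19). The other probes of Mt2A had 0.18 (SE 0.15) and 0.14 (SE 0.13), and the groups overlapped on each of these probes. The list's median was 0.06 without DNPT replicate 2, 0.08 without vehicle replicate 2, 0.19 without DNPT replicate 1, -0.02 after quantile normalization, -0.05 after normexp correction and quantile normalization and 0.04 on slide 1 alone. Mt3, a metallothionein of brain, was at -2.94, -3.80 and -1.15 in DNPT replicates 1, 2 and 3, against -4.30, -4.45 and -3.89 in vehicle replicates 1, 2 and 3 (change 1.59, SE 0.67, limma adjusted p = 0.419), highest in DNPT replicate 3, without which the change was 0.84. On its second tested probe DNPT replicate 3 was instead the lowest DNPT rat, at -3.88, the groups did not overlap, and the change was 0.60 (SE 0.21). Mtf1, the metal sensor, was at -0.13 (SE 0.16), and at 0.06 on slide 1 alone.

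Of 5 tested genes in the list of iron and manganese carriers, 4 had positive changes (median 0.09). That median was 0.29 without DNPT replicate 1, -0.06 without DNPT replicate 3, 0.19 without vehicle replicate 2, 0.04 without vehicle replicate 3, 0.03 with the mean over the probes of a gene and -0.01 on slide 1 alone. Slc11a2, the divalent metal transporter DMT1, was at 4.22, 4.52 and 4.68 in DNPT replicates 1, 2 and 3, against 3.67, 3.91 and 4.03 in vehicle replicates 1, 2 and 3. The groups did not overlap, and the change was 0.60 (SE 0.16, limma adjusted p = 0.356, 0.0916 to 0.802 over the alternatives). On slide 1 alone it was 0.35. Its other tested probes had changes of 0.51 (SE 0.13), without overlap, and 0.17 (SE 0.12), with overlapping groups, and the mean over its probes was 0.43. Tfrc, the transferrin receptor, was at 0.18 (SE 0.26), but at 0.39 without DNPT replicate 1, -0.07 without DNPT replicate 3, 0.04 without vehicle replicate 3 and -0.25 on slide 1 alone. Slc40a1, the iron exporter ferroportin, was at 0.09 (SE 0.10) and Atp13a2 at -0.05 (SE 0.08).

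**Figure D4:**
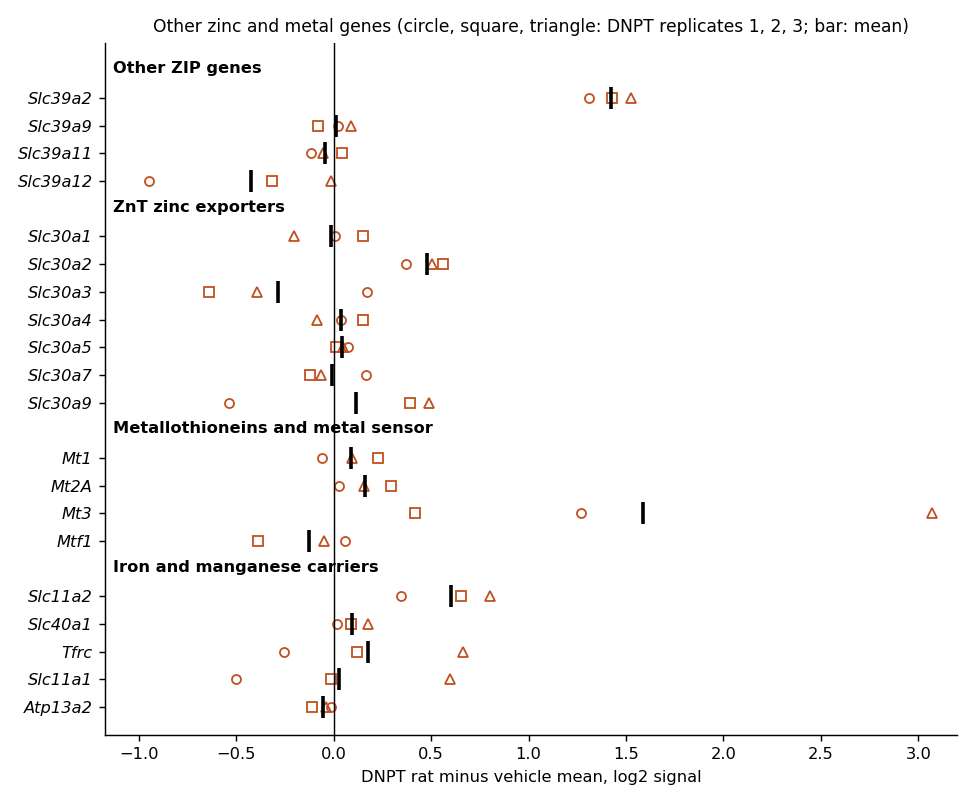
Difference of each DNPT rat from the vehicle mean, in log2 signal, for the 20 tested genes of the other zinc and metal lists (circle, square and triangle for DNPT replicates 1, 2 and 3, bar for their mean). Slc39a2, Slc30a2, Mt3 and Slc11a2 lie above 0 in all 3 rats without overlap with the vehicle values. The means of Mt1 and Mt2A lie at 0.09 and 0.16, with overlapping groups.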

How the data were processed

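Total RNA of 6 renal cortex samples was amplified, labelled with Cy3 and hybridised to 1-colour Agilent arrays, per the labels' protocols, and scans were read with Agilent Feature Extraction 10.7, per the submitters' processing notes. The deposited scanner files hold a linear intensity per spot, the processed signal, corrected for background per the file headers. The deposited value table holds a ratio: every array's values of at least 0.1 equalled its processed signal over a constant near its 75th percentile (100% within 0.5%), so it runs in the same direction, uncentred, with column medians from 0.112 to 0.116, and no source used here says how it was made.

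Control spots and 113 outlier-flagged values were left out, and saturated spots kept. Log2 processed signal minus the array's 75th percentile was the measure. Probes entered the test when 3 or more of the 6 arrays had them well above background and each group had 2 or more values. Names came from the RefSeq gene table of GRCr8, through accessions stripped of their version. Of 61537 probes 28206 matched 1 gene, 0 several and 33331 none. A gene was its brightest tested probe, and unnamed probes stood alone, which gave 34915 features. The comparison was limma's (lmFit, then eBayes, version 3.58.1 under R 4.3.3), two-sided, adjusted over all features after Benjamini and Hochberg, and the procedure was tested on simulated data. The 6 samples are described as biological replicates. An exact permutation test of 3 against 3 cannot go below 0.1, so none was run on single values. Tables and plots used Python 3.11.15, pandas 2.3.3 and matplotlib 3.10.9.

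Members, lists, motifs and alternatives were chosen with earlier results of these data known. Named genes were all members and other ZIP genes, the 3 tested genes with the largest change in each other list, and the 3 closest profiles to each member without overlap. Some others (Slc30a1, Mt1, Atp13a2, the markers named) were chosen after their values were seen. Alternatives were quantile normalization, normexp with an offset of 50 on median signals, scaling to the median, the deposited value table, no filter or a stricter one, the mean over probes, an intensity trend, a block for slide, a block for replicate number, slide 1 alone and each sample left out.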

Additional observations from a re-analysis of the deposited data

How the results depend on the processing

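Slc39a4, Slc39a5, Slc39a6, Slc39a7 and Slc39a14 kept the sign of their change in all 17 alternatives, but not all 17 could turn it. The other background filters, the intensity trend and the replicate block left each of these changes as it was. The deposited value table holds the same signals over a constant, and its changes were nearly the same (0.87 for Slc39a4). Scaling to the median moved all of these changes by the same small amount, that of Slc39a4 to 0.89. Slc39a4 and Slc39a7 have 1 probe each, so the mean over probes left their changes as they were. Slide as a block gave the same change as slide 1 alone. For the 4 members without overlap, leaving out a rat or keeping slide 1 alone could not turn the sign. The 4 members higher without overlap were the same 4 genes in every alternative where overlap can be counted, except after normexp correction and quantile normalization. There they were 3, beside 10.2% of all features, as Slc39a7 overlapped. With 1 rat left out they numbered 4 each time, beside 15.3% to 22.0%. Leaving out a rat or keeping slide 1 alone cannot make separate groups overlap, so none of the 4 could drop out in those settings. Members lower without overlap, 0 over all rats, were 2 (Slc39a3 and Slc39a14) with the mean over the probes of a gene, beside 8.66% of all features, 1 on slide 1 alone, beside 23.9%, and 0 to 1 with a rat left out, beside 11.1% to 20.9%. Features called by limma at an adjusted p under 0.05 numbered 2 with normexp and quantile normalization, 1 with slide as a block and 0 to 623 with a rat left out, the 623 without DNPT replicate 1. Features at an unadjusted p under 0.05 numbered 4227, against 8737 with no filter on background, 2710 for slide 1 and 2393 when slide was a block, and leaving out a rat gave 7281 (DNPT replicate 1), 2574 (vehicle replicate 1) or 2541 (vehicle replicate 2). The cause of these shifts was not tested. No gene of the other zinc and metal lists was called in any of the 17. The replicate numbers are only names here: deviations of same-numbered samples correlated at -0.18, -0.06 and -0.18 over features, 0 of 6 samples correlated best with its own number, and with the replicate number as a block 0 features were called and 3094 reached an unadjusted p under 0.05. With 3 rats a group, slide and treatment can be compared only through DNPT replicate 1.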
